A study of Mus musculus with 12 samples.

Results

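The liver RNA difference between a low and an adequate selenium diet was followed in male mice of both genotypes at once, so that the diet was compared after adjusting for genotype. All 12 libraries of the study were used, 6 from mice on 0.08 ppm of selenium and 6 from mice on 0.25 ppm, given as sodium selenite from weaning for at least 8 weeks. They fall into 4 groups of 3. Libraries S10, S11 and S12 are from Scly KO mice at the low intake (KO LS), and S7, S8 and S9 from Scly KO mice at the adequate intake (KO MS). Libraries S1, S2 and S3 are from WT mice at the low intake (WT LS), and S4, S5 and S6 from WT mice at the adequate intake (WT MS). KO mice lack selenocysteine lyase in the whole body and came from a homozygous colony, and WT mice were C57BL/6N from a colony of their own. Of 24795 genes in the count table, 12009 had enough counts to be tested for the diet term.

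Selenium enters proteins as the amino acid selenocysteine, and the liver both uses it for its own antioxidant selenoproteins and secretes selenoprotein P to supply other organs. When selenium is short, the RNAs of some selenoproteins are degraded while others are spared. Selenocysteine lyase releases selenium from selenocysteine for reuse, so a loss of the enzyme and a low intake both bear on the same supply.

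The labels held for the deleted gene. Scly was at 4.97, 5.10 and 4.84 CPM (counts scaled to a common library size of 1e+06 with TMM factors) in KO LS livers and at 6.35, 6.90 and 6.32 in KO MS livers, against 73.1 to 105 CPM in the WT libraries. Total counts ranged from 4797067 to 11762165 per library. S7 and S8 of KO MS held 16.99% and 19.86% of their counts on the ribosomal RNA precursor Rn45s, against 2.447% to 9.23% elsewhere, and S12 of KO LS had the lowest mean correlation with the other libraries, 0.873, with summed bile duct marker RNA at 349 CPM against 31.3 to 53.3 in the others. Over the 11862 genes with a transcript length in the annotation, longer genes had higher diet log2 fold changes, with a Spearman rho of 0.433 in KO and 0.105 in WT livers, and without S7 and S8 the rho of the shared difference was 0.100 against 0.396 with them. The part of these properties in the gene results was not tested. The labels do not say that libraries of a group came from separate mice, so a p-value here speaks of the spread among libraries.

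Tsukushi (Tsku), a small leucine-rich protein that hepatocytes secrete, rose on low selenium in both genotypes and was the 1 gene of 12009 that passed an adjusted p of 0.05 (0.00833% of the genes tested). Tsku was at 60.5, 90.6 and 66.1 CPM in KO LS livers, against 16.7, 14.1 and 22.0 CPM in KO MS livers. In WT livers it was at 35.7, 66.4 and 43.8 CPM on low selenium, against 9.44, 18.1 and 9.83 CPM on adequate selenium. All 6 low selenium libraries were above all 6 adequate ones, with the nearest values 35.7 CPM in S1 and 22.0 CPM in S9. The log2 fold change was 2.0 ± 0.222 (SE, edgeR quasi-likelihood test, adjusted p = 0.00453), a 4.0-fold difference, with 2.03 in KO and 1.97 in WT livers. The difference between these was not called (edgeR interaction test, adjusted p = 0.957). Without S7 and S8, where S9 stands alone for KO MS and its spread is taken from the remaining groups, the log2 fold change was 1.88 and the adjusted p 0.111.

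The sequence before the Tsku start is shown because this is the gene called. Tsku lies on the minus strand at chr7:98350668-98361328 (mm10), and the 250 bases before its RefSeq start (GRCm38.p6, chr7:98361329-98361578) read:
Tsku: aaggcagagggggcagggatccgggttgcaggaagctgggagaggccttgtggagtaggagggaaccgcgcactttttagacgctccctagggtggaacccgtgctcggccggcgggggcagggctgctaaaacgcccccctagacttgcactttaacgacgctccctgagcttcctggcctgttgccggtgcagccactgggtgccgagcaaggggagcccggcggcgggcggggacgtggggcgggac
None of the strings TCACCCCAC, CACGTG or CCAAT, searched on both strands, stood in this window.

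**Figure D1:**
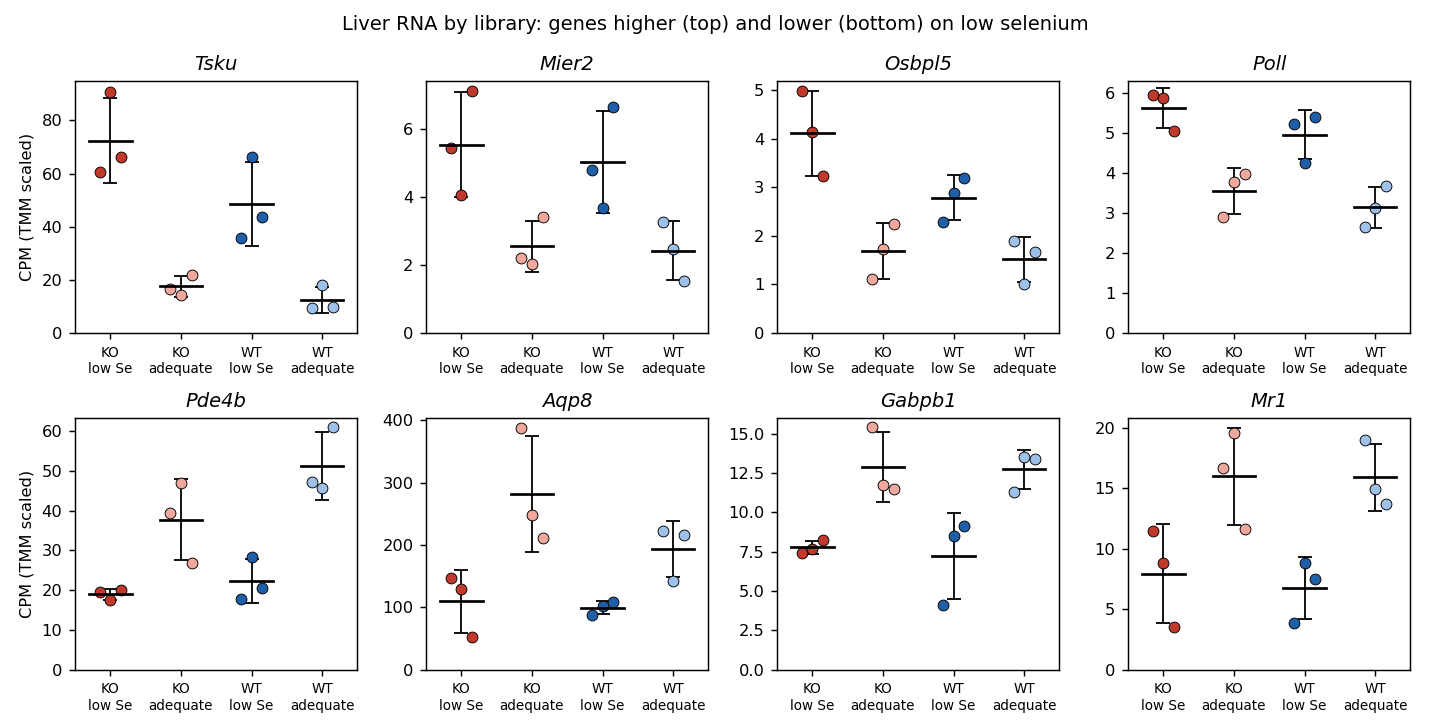
TMM-scaled CPM (y axis, starting at 0) of 4 genes higher and 4 genes lower on low selenium, by group on the x axis. Points are the 3 libraries of a group, lines their mean and bars the SD. For Tsku the low selenium libraries sit at 35.7 to 90.6 CPM, all above the adequate ones.

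No other gene passed in either direction, so that 0 of 12009 fell (0%) by this test. At an unadjusted p under 0.05, 652 genes were higher on low selenium (5.43%) and 815 lower (6.79%). The gene with the next smallest p was Pde4b, which encodes a phosphodiesterase that breaks down cyclic AMP. Pde4b was at 19.5, 17.4 and 20 CPM in KO LS livers, against 39.5, 46.9 and 26.8 CPM in KO MS livers. In WT livers it was at 17.8, 28.4 and 20.5 CPM on low selenium, against 47.2, 45.6 and 61.1 CPM on adequate selenium. The libraries did not overlap within either genotype, the log2 fold change was -1.09 ± 0.175 (SE), and the adjusted p was 0.142 with edgeR, 2.83e-05 with DESeq2 and 0.00617 with limma-voom. DESeq2 and limma-voom each called 3 genes (0.025%): both called Tsku and Pde4b, and the third was Aqp8 with DESeq2 and Htd2 with limma-voom. Htd2, named after its values were seen, lay between 0 and 2.34 CPM in the low selenium libraries and between 0.778 and 1.89 CPM in the adequate ones, which overlapped.

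Aqp8, a water channel of hepatocytes, was at 147, 130 and 52.3 CPM in KO LS livers, against 388, 249 and 211 CPM in KO MS livers. In WT livers Aqp8 was at 88.3, 102 and 108 CPM on low selenium, against 222, 142 and 216 CPM on adequate selenium. The libraries were apart within each genotype, and the log2 fold change of -1.16 ± 0.256 (SE) had an adjusted p of 0.397 with edgeR and 0.0431 with DESeq2. Every other gene named below had an edgeR adjusted p of at least 0.397, and its difference is given as a value.

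The genes with the smallest p that were lower on low selenium in both genotypes are given with what each is known to do. Hmgcs1, which makes the HMG-CoA of the cholesterol pathway, had a log2 fold change of -0.83 in KO and -0.99 in WT livers. Abcd2, a peroxisomal importer of very long chain acyl-CoA, was at -0.77 and -0.97 in the same order, and Acss3, a mitochondrial acyl-CoA synthetase, at -0.61 and -1.39. The phospholipase gene Pla2g16 was at -1.36 and -0.66. Sult1c2, a sulfotransferase, was at -0.70 and -1.30, and Gstp3, a glutathione transferase, at -0.61 and -0.93. The remaining genes on the lower side were Dusp6, which switches off ERK kinases (-0.91 and -0.85), Retreg1, a receptor for the turnover of endoplasmic reticulum (-1.06 and -0.57, or -0.82 over both genotypes and -0.48 without S7 and S8), Gabpb1, a subunit of an ETS family transcription factor (-0.73 and -0.79), and Mr1, which presents vitamin B metabolites to T cells (-1.02 and -1.21).

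Gabpb1 and Mr1 were 2 of the 25 genes (0.208%) whose 6 low selenium libraries all lay below all 6 adequate ones, and 18 genes (0.15%) lay above. Gabpb1 was at 7.41, 7.70 and 8.24 CPM in KO LS livers, against 15.5, 11.8 and 11.5 CPM in KO MS livers. In WT livers Gabpb1 was at 4.10, 8.51 and 9.14 CPM on low selenium, against 11.3, 13.5 and 13.4 CPM on adequate selenium. The highest low selenium value was thus 9.14 CPM and the lowest adequate value 11.3 CPM, with a log2 fold change of -0.76 ± 0.187 (SE).

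Among genes higher on low selenium in both genotypes, Mier2, a MIER family regulator of transcription, was at 5.42, 4.04 and 7.12 CPM in KO LS livers, against 2.21, 2.04 and 3.41 CPM in KO MS livers. In WT livers Mier2 was at 4.78, 3.68 and 6.65 CPM on low selenium, against 3.27, 2.46 and 1.54 CPM on adequate selenium. All 6 low selenium values were above all 6 adequate ones, and the log2 fold change was 1.10 in KO and 1.05 in WT livers. Osbpl5, a lipid transfer protein of the oxysterol-binding family, had 1.25 and 0.89 on the same scale, and Poll, the repair polymerase lambda, 0.66 and 0.65. The libraries of both genes were apart over all 12 as well. Il6ra, the interleukin 6 receptor, was at 0.94 in KO and 1.17 in WT livers with overlapping KO libraries, and the kinase gene Wnk4 at 1.72 and 1.82 with values of at most 3.89 CPM. Zbtb42, Samd1, Nbeal2, Cdt1, Rtkn and Rasgrp4 completed the 12 with the smallest p, with log2 fold changes from 0.71 to 1.37.

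Cirbp and Hsph1, a cold-induced and a heat-induced gene, were among those with separate libraries. Cirbp, an RNA-binding protein that cells make in the cold, was at 10.9, 12.2 and 9.74 CPM in KO LS livers and 11.8, 12.3 and 12.1 CPM in WT LS livers, against 25.1, 21.5 and 15.2 CPM in KO MS and 15.1, 15.2 and 15.7 CPM in WT MS livers. Hsph1, a heat shock chaperone, was at 23.0, 30.8 and 21.5 CPM in KO LS livers and 25.0, 22.9 and 23.3 CPM in WT LS livers, against 10.9, 17.7 and 15.9 CPM in KO MS and 19.8, 16.5 and 17.2 CPM in WT MS livers. For both genes no low selenium library overlapped an adequate one, with log2 fold changes of -0.63 ± 0.167 for Cirbp and 0.58 ± 0.163 for Hsph1 (SE). Without S7 and S8 that of Cirbp was -0.39. Of the 18 heat shock genes tested, 3 were higher and 1 lower at an unadjusted p under 0.05 (5.43% and 6.79% of all genes were). The list median was 0.05 against 0.03 over all genes tested.

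The remaining genes with the smallest p among those with separate libraries follow. Nudt1, which clears oxidized nucleotides, was at 10.9, 12.4 and 8.68 CPM in KO LS livers, against 42.6, 18.8 and 13.9 CPM in KO MS livers. In WT livers Nudt1 was at 13.9, 14.7 and 13 CPM on low selenium, against 20.3, 21.1 and 23.1 CPM on adequate selenium. The log2 fold change was -1.23 in KO and -0.63 in WT livers, with no overlap within either genotype, and over both it was -0.94, against -0.62 without S7. Mpg, a glycosylase that removes damaged bases, was at -0.89 and -0.52, and its highest low selenium value of 7.89 CPM was below its lowest adequate value of 8.43 CPM, while its log2 fold change over both genotypes was -0.71, against -0.46 without S7 and S8. Sfr1, a recombination cofactor, was on the higher side at 0.62 in KO and 0.35 in WT livers, as was Poll above. Pias3, a SUMO ligase that restrains STAT3, was at 0.48 and 0.64, and Vasn at 0.89 and 0.63. Cacnb4, a calcium channel subunit, and the zinc finger gene Zfp939 were lower by this measure, at -0.93 and -0.94 over both genotypes, with no value above 4.24 CPM.

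Across all genes the diet differences of the genotypes were weakly alike. The KO and WT contrasts share no library, and their log2 fold changes had a Pearson r of 0.140 over 12009 genes, with the same sign in 58.1% of genes, below 0 in both for 26.5% and above 0 in both for 31.6%. Genes share libraries and are not independent replicates, so this is a description with no p. Without S7 and S8 the number of genes at an unadjusted p under 0.05 for the diet term was 331 of 13298 tested (2.49%), the r was 0.0153 and the same-sign share 54.5%, and the r was -0.00717 without S6 and 0.330 without S4. Within KO livers 2633 genes (21.9%) had an unadjusted p under 0.05 and within WT livers 275 (2.29%), with 0 genes passing the adjusted threshold in either, and 0 for the interaction (808 at an unadjusted p under 0.05). The KO count rests on which KO MS libraries are kept, since 3979 genes passed the adjusted threshold without S9.

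Genes that met the p under 0.05 in each genotype numbered 25 with the same direction (0.208%), 11 higher and 14 lower, and 7 with opposite directions (0.0583%). Low and adequate libraries were apart within both genotypes for 121 genes in the same direction (1.01%), with 54 higher (0.45%) and 67 lower (0.558%). For 45 genes they were apart in opposite directions (0.375%). In KO alone 21.9% of genes met the p and in WT alone 2.29%, while 10.9% and 11.7% had separate libraries. The numbers that would meet both by chance were not computed, so these counts do not show an excess of shared genes. Of the 121, 103 had an unadjusted p under 0.05 for the diet term (edgeR). These genes were picked by the separation of the same libraries, so that count is not a second measure. On the log2 scale 16 of the 121 differed by more than 1. The median size of the log2 fold change of the 121 was 0.60, so that most of these differences were below a 2-fold change.

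**Figure D2:**
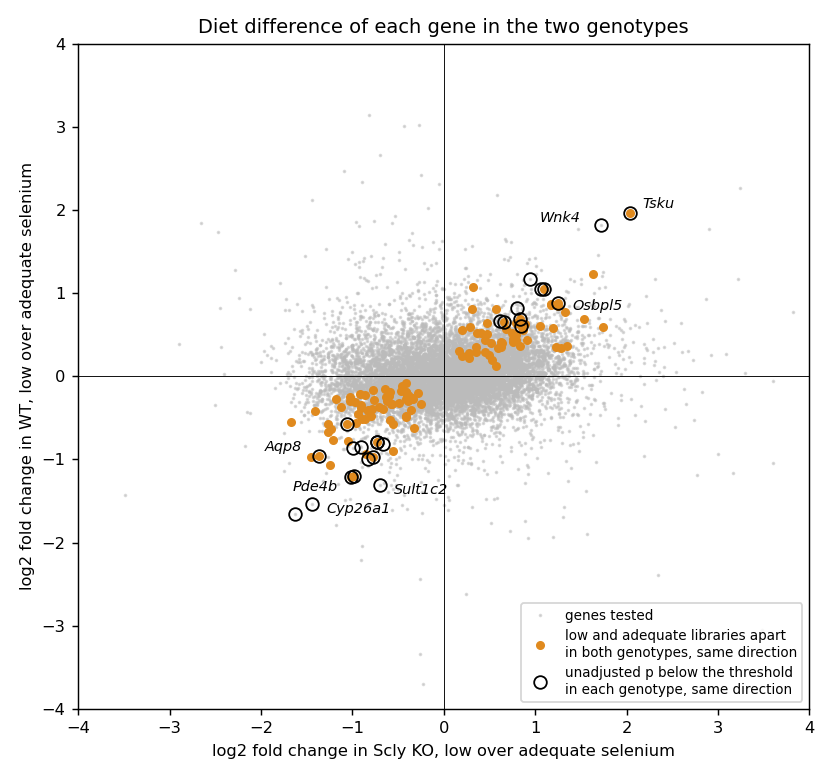
Diet log2 fold change of each gene tested in KO livers (x axis) and in WT livers (y axis), low over adequate selenium. Filled points are the 121 genes whose libraries were apart within both genotypes in the same direction, open circles the 25 genes with an unadjusted p under 0.05 in each, and 7 genes lie outside the axes. Tsku stands at 2.03 and 1.97.

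Genes of cholesterol synthesis had mostly lower levels on low selenium in both genotypes, without passing the adjusted threshold. This pathway builds cholesterol from acetyl-CoA and is switched on by SREBP2 when sterols in the cell are scarce. Of its 24 genes, 22 had a log2 fold change below 0 (46.6% of all genes tested did). At an unadjusted p under 0.05, 10 were lower and 0 higher (6.79% and 5.43% of all genes were). For 0 of the 24 were the libraries apart within both genotypes. The median log2 level of the list relative to the genotype mean was -0.63, -0.16 and 0.24 in S1, S2 and S3 of WT LS. In S4, S5 and S6 of WT MS it was 0.58, -0.30 and 0.30, so the WT libraries overlapped, while the KO libraries were apart. The median was -0.43 against 0.03 over all genes, with -0.52 in KO and -0.38 in WT livers, and 21 of the 24 were below 0 in both. Without S7 and S8 the median was -0.44, and 24 of 24 were below 0. Hmgcs1 was at 186, 141 and 161 CPM in KO LS livers, against 331, 212 and 326 CPM in KO MS livers. In WT livers Hmgcs1 was at 70.3, 101 and 159 CPM on low selenium, against 266, 136 and 256 CPM on adequate selenium. The KO libraries were apart, while in WT livers S3 on low selenium was above S5 on adequate selenium.

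The mevalonate kinases and their neighbours had the same direction. Pmvk, phosphomevalonate kinase, had a log2 fold change of -0.84 ± 0.259 (SE), Mvd, the next enzyme, -1.12 ± 0.394, and Idi1, the isomerase after it, -0.81 ± 0.322. Later steps were also lower, with -0.66 for Sc5d, -0.70 for Msmo1 and -0.51 for Hsd17b7. Insig1, which holds SREBP back and is itself an SREBP target, was at 323, 240 and 174 CPM in KO LS livers, against 617, 446 and 458 CPM in KO MS livers. In WT livers Insig1 was at 222, 299 and 455 CPM on low selenium, against 566, 316 and 440 CPM on adequate selenium. The libraries thus overlapped in WT livers, where S3 on low selenium was above S5 and S6 on adequate selenium.

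Promoter stretches of these genes are shown for the motifs linked to SREBP, which binds the sterol regulatory element and also E-boxes. Symbols matched a RefSeq promoter (GRCm38.p6) for 9432 of the 12009 genes tested. Of the 24 cholesterol genes 16 had one, so the counts below cover part of the list. The string TCACCCCAC, the core of the sterol regulatory element of the LDL receptor gene, stood in the 250 bases before the start of 0.56% of all 27025 symbols on either strand, and the E-box CACGTG, which reads the same on both strands, in 6.86%. Among the 9432 genes tested that have a promoter these shares were 0.70% and 10.26%. Of the 16 cholesterol genes, 4 (Dhcr7, Hsd17b7, Insig1 and Sc5d) held CACGTG and only 1 (Hmgcs1) held TCACCCCAC. The string CCAAT, searched as well, stood in all 16, against 40.72% of the genes tested that have a promoter. The stretch of Hmgcs1 (chr13:119690101-119690350, plus strand) holds the string once, in capitals, beginning 137 bases before the start:
Hmgcs1: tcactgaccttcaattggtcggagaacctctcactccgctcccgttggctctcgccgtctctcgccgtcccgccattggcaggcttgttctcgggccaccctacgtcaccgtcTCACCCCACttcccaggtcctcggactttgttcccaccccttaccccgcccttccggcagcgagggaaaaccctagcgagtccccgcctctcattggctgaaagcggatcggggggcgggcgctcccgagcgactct
Insig1 (chr5:28071291-28071336, plus), Sc5d (chr9:42264373-42264418, minus) and Hsd17b7 (chr1:169969323-169969368, minus) hold CACGTG, in capitals, with 20 bases shown on each side:
Insig1: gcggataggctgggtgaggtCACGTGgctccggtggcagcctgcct
Sc5d: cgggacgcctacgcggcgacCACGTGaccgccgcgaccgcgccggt
Hsd17b7: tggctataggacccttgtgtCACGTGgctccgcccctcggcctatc
A match is a description of the letters, not evidence of binding in these livers.

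Genes of fatty acid synthesis and its regulators had the same tendency, again without a call. Of 24 genes, 20 were below 0 (46.6% of all genes tested were). At an unadjusted p under 0.05, 6 were lower and 1 higher (6.79% and 5.43% of all genes were). The median was -0.49, with -0.40 in KO and -0.64 in WT livers, and 16 of the 24 were below 0 in both. The median log2 level of the list relative to the genotype mean was 0.35, 0.14 and -1.10 in S10, S11 and S12 of KO LS, against 0.29, 0.07 and 0.54 in KO MS, so that in KO livers only S12 lay below the adequate libraries. In WT livers it was -0.64, 0.08 and -0.16 in S1, S2 and S3 on low selenium. On adequate selenium it was 0.79, -0.10 and 0.18 in S4, S5 and S6, so the WT libraries overlapped too. Insig2, the second anchor of SREBP, had libraries apart within both genotypes, at 93.8, 122 and 86.3 CPM in KO LS livers, against 428, 154 and 142 CPM in KO MS livers. In WT livers Insig2 was at 156, 110 and 132 CPM on low selenium, against 189, 199 and 245 CPM on adequate selenium. Its log2 fold change was -0.97, against -0.61 without S7. Pnpla3, a lipase induced by SREBP1c, was at 10.8, 10.4 and 0.779 CPM in KO LS livers, against 23.6, 14.1 and 13.9 CPM in KO MS livers, and at 11.4, 14.8 and 10.8 CPM in WT LS livers, against 35.5, 16.6 and 25.8 CPM in WT MS livers. Both genotypes were apart for Pnpla3, with a log2 fold change of -1.16 ± 0.428 (SE).

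Acly, which supplies acetyl-CoA for lipid synthesis, had a log2 fold change of -0.97 and Elovl5, a fatty acid elongase, -0.63. Fasn, fatty acid synthase, had -0.85 with an unadjusted p of 0.122 and ranged from 436 to 3190 CPM within WT MS livers alone. S4 held that highest value, and without S4 the list median was -0.27. Lpin1, a phosphatidate phosphatase that is also a coactivator of fatty acid oxidation genes, was the member on the higher side, at 1.14 ± 0.473 (SE). It was at 89.2, 270 and 129 CPM in WT LS livers, against 81.3, 51.4 and 56.6 CPM in WT MS livers, while S9 of KO MS overlapped KO LS.

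The clock list had a median above 0 in both genotypes, while its libraries overlapped in each. The circadian clock is a loop of transcription factors that sets daily rhythms of liver RNA, and Tsku was on this list, so its called difference is part of the count. Of 21 genes, 17 were above 0 (6412 of all 12009 were). At an unadjusted p under 0.05, 5 were higher and 0 lower (5.43% and 6.79% of all genes were). The median was 0.28, with 0.43 in KO and 0.20 in WT livers. The median log2 level relative to the genotype mean was -0.22 in S1 of WT LS, below -0.02 in S4 of WT MS. It was -0.06 in S12 of KO LS, below 0.29 in S9 of KO MS. Over the same genes without S7 and S8 the median was 0.08, with 13 genes above and 8 below 0. With S7 alone left out the median was 0.14 and with S10 alone left out 0.15. Beside Tsku the 5 were Noct, a rhythmic phosphatase of nicotinamide cofactors, with a log2 fold change of 0.86 ± 0.243 (SE), Per1, a repressor of the loop, with 0.73 ± 0.267, Usp2, a rhythmic deubiquitinase, with 0.85 and Ciart, another repressor, with 0.78. Per1 was at 20.5, 37.4 and 30.9 CPM in WT LS livers, against 16.2, 19.2 and 17.6 CPM in WT MS livers, which did not overlap. In KO livers Per1 was at 38.6, 28.8 and 37.6 CPM on low selenium, against 8.70, 19.5 and 35.8 CPM on adequate selenium, where S9 lay within the low selenium range. Dbp and Nr1d2, output and repressor genes of the loop, were at 0.21 and -0.32 with unadjusted p of 0.367 and 0.116. The time of day at which livers were taken is not given in the sources used here, and its part was not tested.

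E-boxes are also the sites that the clock factors bind, and Per1 (chr11:69098763-69098808, plus) and Ciart (chr3:95882319-95882364, minus) carry CACGTG before a start, shown in capitals with 20 bases on each side:
Per1: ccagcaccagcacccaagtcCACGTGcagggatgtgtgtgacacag
Ciart: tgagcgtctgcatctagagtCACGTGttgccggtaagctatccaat
Tsku had none in the window printed above. Of the 17 clock list genes with a promoter, 5 held CACGTG (Bhlhe41, Ciart, Cry1, Per1 and Tef).

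**Figure D3:**
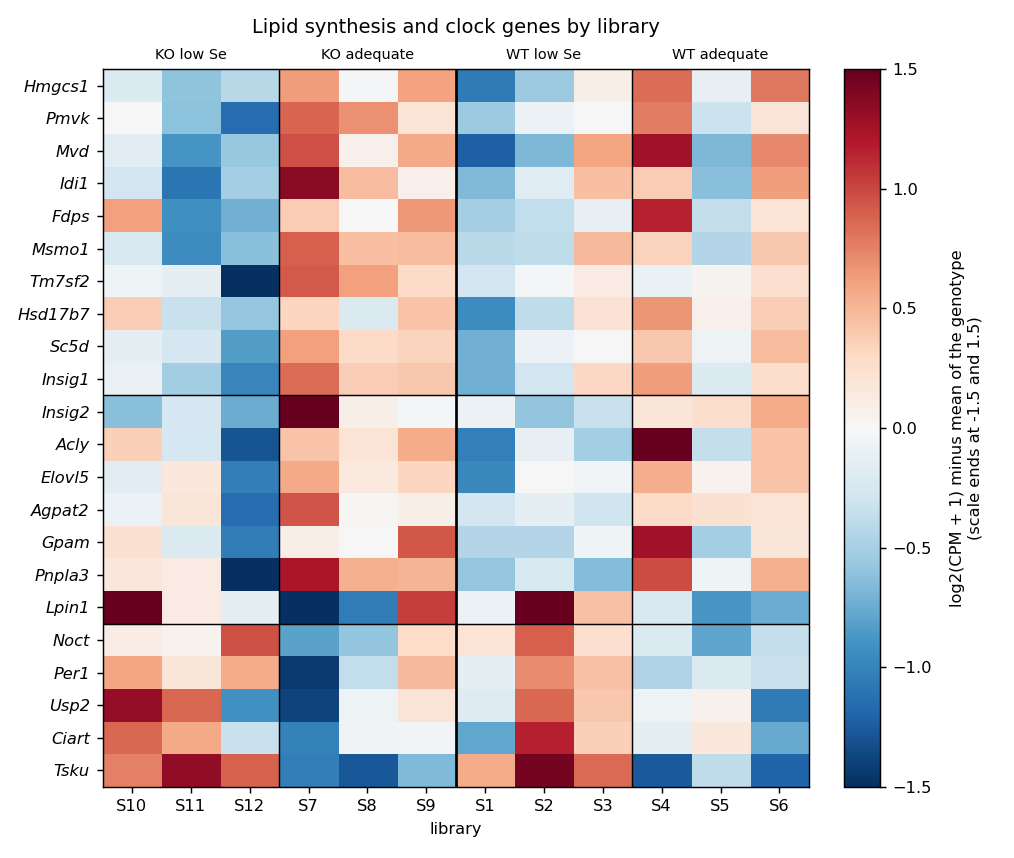
Colours give log2(CPM + 1) minus the mean of the 6 libraries of the genotype, red above and blue below, for 10 cholesterol synthesis genes, 7 fatty acid synthesis genes and 5 clock list genes (rows) in each library (columns). The rows of each list equal in number its members at an unadjusted p under 0.05, and the colours do not speak for the whole lists. Fasn, Dbp and Nr1d2, above that p, are not shown. Hmgcs1, for example, is at 141 to 186 CPM in KO LS livers, against 212 to 331 CPM in KO MS livers. The WT libraries S3 and S5 run against their groups for Hmgcs1.

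Enzymes of amino acid metabolism had medians nearer to 0, beside shares over all genes of 46.6% below 0 and 6.79% lower at an unadjusted p under 0.05. Of the 23 genes of the urea cycle and of alanine, aspartate and glutamate handling, 21 were below 0 and 4 lower at an unadjusted p under 0.05, with a median of -0.22 (-0.18 in KO and -0.26 in WT livers), and 12 of the 23 were below 0 in both genotypes. Of 32 genes of glycine, serine and one-carbon metabolism, 7 were lower and 1 higher at that p, and the median was -0.11, with 12 of the 32 below 0 in both. Without S7 that median was -0.07 and without S11 -0.18. Bhmt, which remethylates homocysteine with betaine, was at 646, 841 and 794 CPM in WT LS livers, against 1349, 1176 and 1607 CPM in WT MS livers, and S12 of KO LS lay above S9 of KO MS. Mat1a, the liver enzyme that makes S-adenosylmethionine, was lower in all 6 low selenium libraries than in all 6 adequate ones, at 2867, 2851 and 2209 CPM in KO LS and 1510, 2782 and 2754 CPM in WT LS livers, against 3371, 3457 and 3075 CPM in KO MS and 4223, 3370 and 3250 CPM in WT MS livers. Its log2 fold change was -0.47 ± 0.215 (SE). Of 36 PPARA targets and fatty acid oxidation genes, 7 were lower and 0 higher at an unadjusted p under 0.05, with a median of -0.20 (-0.13 without S2 and -0.11 without S5), and the pantetheinase Vnn1 had the smallest p at -0.78.

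Selenoprotein RNAs had lower medians in KO than in WT livers, a difference between lists that was not tested. Of the 24 selenoprotein genes listed, 20 were tested and Gpx2, Selenov, Dio2 and Dio3 were below the count minimum. Of the 20, 15 were below 0 (46.6% of all genes tested were). At an unadjusted p under 0.05, 5 were lower and 2 higher (6.79% and 5.43% of all genes were), and none passed the adjusted threshold. For the 10 redox enzymes the median was -0.42, with -0.64 in KO and -0.15 in WT livers, and for the 10 of the endoplasmic reticulum, secretion and hormone metabolism -0.22, with -0.64 and 0.02. Without S7 and S8 the medians were -0.13 and -0.0043. The median log2 level of the redox list relative to the genotype mean was 0.67, 0.31 and -0.096 in S7, S8 and S9 of KO MS. That of the other list was 0.90, 0.32 and -0.19. For both lists S9 lay below S11 of KO LS (-0.027 and -0.14), so the KO values of single genes below rest largely on S7 and S8.

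Selenow, a small thioredoxin-like selenoprotein, was the one whose libraries were apart within both genotypes. Selenow was at 35.2, 34.6 and 30.3 CPM in KO LS livers, against 93.0, 54.3 and 41.6 CPM in KO MS livers. In WT livers Selenow was at 50.8, 48.4 and 45.8 CPM on low selenium, against 52.1, 54.3 and 61.0 CPM on adequate selenium, with 50.8 CPM in S1 and 52.1 CPM in S4 nearest to each other. The log2 fold change was -0.92 in KO and -0.21 in WT livers. Selenoh, a nuclear selenoprotein, was at -1.15 and -0.33, and Selenop, the secreted selenium carrier, at -1.52 and -0.33. Gpx1, the cytosolic glutathione peroxidase, was at -0.95 in KO and -0.04 in WT livers, and Gpx4, the lipid hydroperoxidase, at -1.27 and 0.28. Gpx3, the plasma peroxidase, and Selenon, of the endoplasmic reticulum, were on the higher side, and the highest low selenium value of Gpx3 was 11.2 CPM in S12.

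Scly itself was slightly lower on low selenium, without passing the adjusted threshold. The paper cites earlier work in which a limited selenium intake raised Scly in mouse liver, the opposite direction. In WT livers Scly was at 83.1, 77.5 and 73.1 CPM on low selenium, against 92.2, 105 and 88.3 CPM on adequate selenium, and the low KO values given above were apart in the same direction. The log2 fold change was -0.34 ± 0.121 (SE), with -0.39 in KO and -0.29 in WT livers, and the KO value rests on the 4.84 to 6.90 CPM left on the deleted gene. Pstk, which phosphorylates the serine carried by the selenocysteine tRNA, was at -1.30 and -0.40, and Sephs2, which makes the selenium donor, at -0.16 and 0.04.

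**Figure D4:**
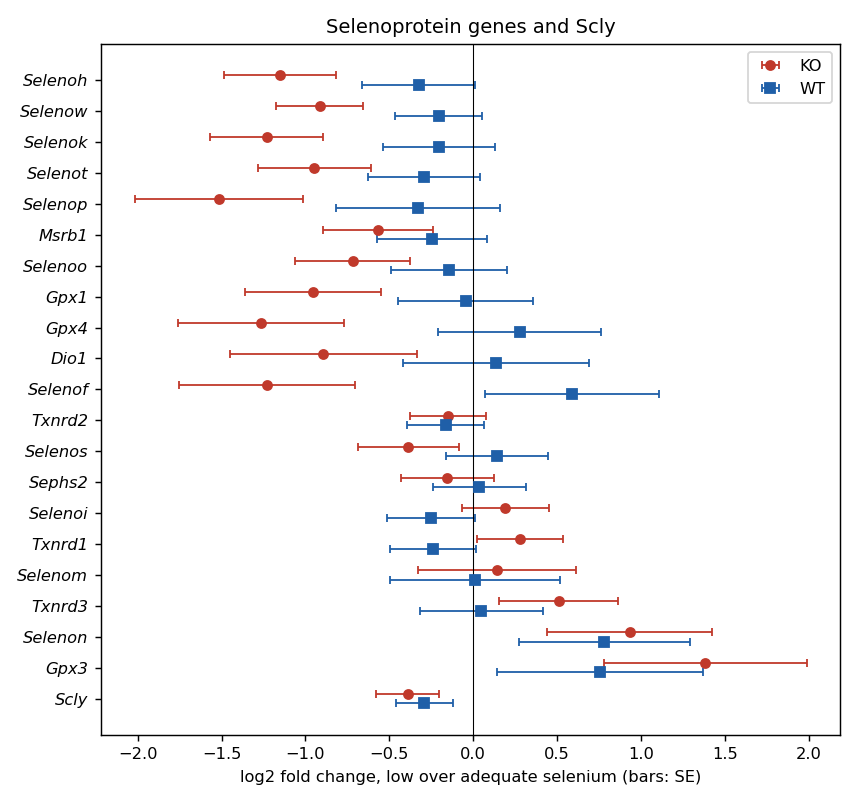
Diet log2 fold change with its SE (x axis) of the 20 selenoprotein genes tested and Scly, in KO (circles) and WT livers (squares). The KO values of Selenop, Gpx4, Selenok, Selenof and Selenoh lie below -1, while the WT values lie between -0.33 and 0.78.

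Several lists had different medians in the genotypes, which was not tested. Cytosolic ribosomal protein genes had a median of -0.94 in KO and 0.05 in WT livers, and nuclear-encoded respiratory chain subunits -0.85 and -0.09, and without S7 and S8 the shared medians were -0.0099 and -0.10. ATF4 targets, which respond to amino acid shortage, had 0.82 and -0.07, and Asns was at 20 CPM in S12 but at most 1.27 CPM in S10 and S11. The major urinary proteins, near-identical genes whose reads may be shared, had -0.80 in KO and 1.59 in WT livers. Their median log2 level relative to the genotype mean was 1.24, 1.34 and -5.64 in S10, S11 and S12 of KO LS, against 1.98, 1.22 and 0.19 in KO MS, so that only S12 lay below all KO MS libraries. In WT livers it was 2.07, -0.02 and 0.28 on low selenium, against -2.16, -0.34 and 0.08 on adequate selenium, which overlapped. A list of genes also measured by qPCR was chosen on these samples and is not independent evidence. Of its 15 genes, 9 were above and 6 below 0 (46.6% of all genes tested were below). At an unadjusted p under 0.05, Ppl and Lcn2 were higher and Slc25a25 lower (5.43% and 6.79% of all genes were). In the paper's qPCR of male livers Ppl had the other direction, lower at the low intake in both genotypes. The selenium term there was significant for Ppl, Abcb1a, Abcc3 and Inhbe, and not for Lcn2 or Slc25a25. Of those with a significant term, Abcb1a, Abcc3 and Inhbe did not reach an unadjusted p under 0.05 for the diet here (edgeR). Slc25a25, a mitochondrial carrier, was at 114, 217 and 150 CPM in WT LS livers, against 360, 366 and 506 CPM in WT MS livers, and at -0.51 in KO and -1.36 in WT livers.

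**Figure D5:**
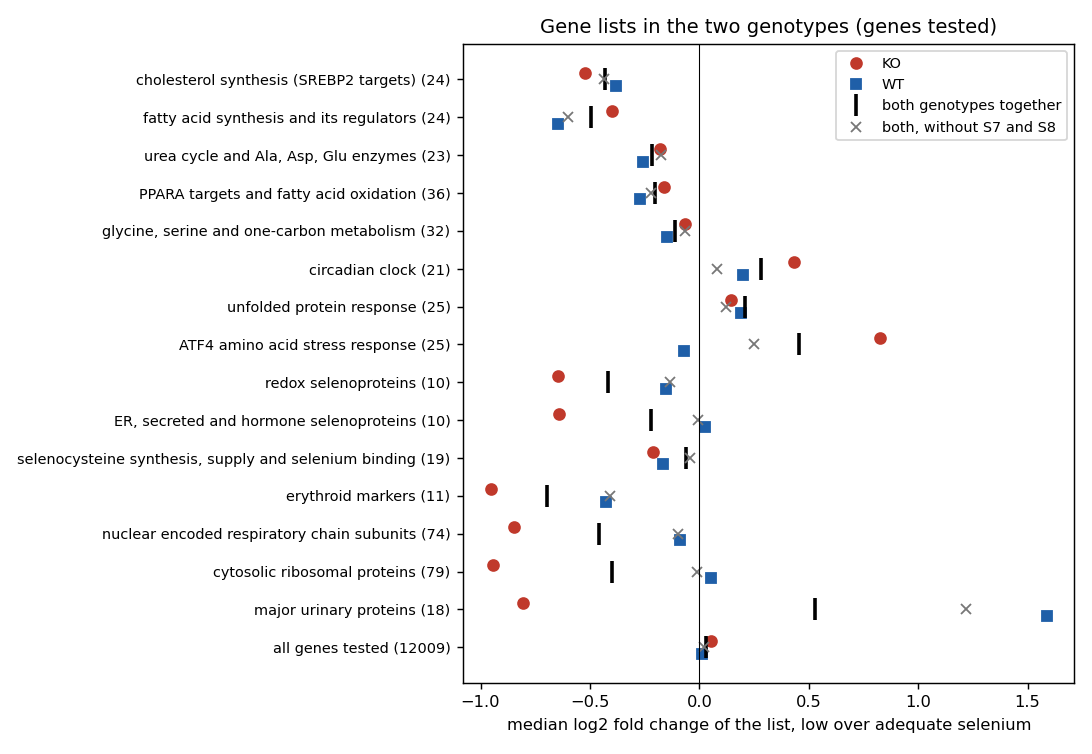
Median diet log2 fold change (x axis) of each gene list in KO livers (circles), in WT livers (squares), in both together (bars) and in both without S7 and S8 (crosses), with the number of genes tested in brackets. Cholesterol and fatty acid synthesis lie left of 0 in both genotypes, from -0.38 to -0.64, beside 0.03 for all genes tested.

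Red cell markers had lower levels on low selenium, and their part in the other results was not tested. Of 11 erythroid genes, 6, all globins, were lower at an unadjusted p under 0.05 (6.79% of all genes were) and the median was -0.70, with -0.95 in KO and -0.43 in WT livers. Without S7 and S8, which held the highest red cell sums, the median was -0.41 and 1 gene was lower at that p. Their summed RNA was 336 to 565 CPM in KO LS livers, against 657 to 1847 CPM in KO MS livers, and 518 to 931 CPM in WT LS livers, against 773 to 1107 CPM in WT MS livers. Hbb-b2 and Hbb-bt held the same counts and overlap or duplicate each other in the table. Hbb-b1 and Hbb-bs moved nearly in step, at 740 and 405 CPM in S7 and 73.2 and 39.5 CPM in S12. The 6 globins are thus not 6 separate measurements. In whole liver, fewer cells of a type and less RNA per cell cannot be told apart. Of the 10 hepatocyte markers 0 passed an unadjusted p under 0.05, and their summed RNA was 71761 CPM in S12 and 79913 CPM in S1, against 101710 to 123210 CPM in the other libraries.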

How the data were processed

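Poly(A) RNA of liver was sequenced in 12 libraries. Per the methods of the study, Cutadapt trimmed the reads, STAR placed them on mm10 and the Partek E/M algorithm assigned them to genes. The authors deposited these estimated counts per gene, of which 89.5% were whole numbers. A second deposited table with the authors' p-values, adjusted p-values and fold changes was not used. No value column was without a group. Counts were rounded, genes were kept by filterByExpr (minimum count 10) and scaled by TMM. Genotype plus diet was fitted with edgeR 4.0.16 (R 4.3.3) by quasi-likelihood, with Benjamini-Hochberg adjustment over all 12009 genes and a threshold of 0.05. Each genotype's diet contrast came from a fit of 1 coefficient per group. DESeq2 1.42.0 and limma-voom 3.58.1 with quality weights were alternatives, beside other factors, filters and left-out libraries. Only the edgeR fit of genotype plus diet was also run on simulated counts with known diet differences. Those counts held no genotype difference and no outlying library, so the run does not speak for S7, S8 and S12.

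The genes named are up to 12 in each direction with the smallest p and the same sign in both genotypes, up to 12 in each direction among genes apart within both genotypes, the selenium genes, the qPCR genes, up to 4 members of each list, and red cell and other markers. Members and lists were chosen with earlier results of these data known, and Htd2, Mvd, Idi1, Msmo1, Hsd17b7, Fasn, Lpin1, Ciart, Dbp, Nr1d2, Mat1a and Asns, outside this rule, were named after their values were seen. Total counts were 4797067 to 11762165 per library. Of 26 symbols stored as dates, 24 were named from their position.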

Additional observations from a re-analysis of the deposited data

Results flagged for a closer look

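Lbp, which encodes a liver-secreted protein that binds bacterial lipopolysaccharide, was higher in every low selenium library of KO livers and lower in every one of WT livers. Lbp was at 100, 52.2 and 51.3 CPM in KO LS livers, against 34.2, 38.6 and 48.8 CPM in KO MS livers, and at 31.9, 39.2 and 42.0 CPM in WT LS livers, against 52.3, 57.9 and 46.9 CPM in WT MS livers. The KO minus WT difference of the diet log2 fold change was 1.21 (edgeR interaction test, adjusted p = 0.65), so it was not called, and Lbp was 1 of 45 genes (0.375%) with libraries apart in opposite directions.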

How the results depend on the processing

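No paired analysis was possible because the table's columns carry no replicate number. For the diet term, 1 gene was called with other factors, filters, the 4-group model, unrounded counts, without Rn45s and without S7, S8 and S12, 3 with DESeq2, 3 with limma-voom and 0 without S7 and S8, where the Tsku log2 fold change was 1.88 (adjusted p = 0.111). Leaving out 1 library gave 1 to 2 calls and a Tsku log2 fold change of 1.88 to 2.16. Genes at an unadjusted p under 0.05 numbered 1467, against 331 without S7 and S8 (0 called), 529 without S7, S8 and S12, and 667 (without S7) to 2837 (without S9) with 1 library left out. Genes under that p in each genotype with the same sign numbered 25, against 694 with limma-voom, 8 without S7 and S8, 121 by non-overlap and 13 to 106 with 1 library left out. Alternatives for the single genotypes were added after seeing the data. Limma-voom, which gave S8 a weight of 6.67 and S9 0.199, called 5988 genes in KO, 18 in WT and 2081 for the interaction. Leaving out 1 library gave 0 to 3979 in KO, 0 to 1 in WT and 0 to 3 for the interaction, against 0 in each with all. The causes were not tested. Redox selenoproteins had a median of -0.08 without S7, S8 and S12. The leave-one-out range was -0.58 to -0.38 for cholesterol synthesis, -0.60 to -0.27 for fatty acid synthesis and 0.14 to 0.36 for the clock, and limma-voom gave -0.28, -0.21 and 0.36. With 3 libraries a group and 4797067 counts in the shallowest library, genes near 1 CPM carry few counts.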

Other observations

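Of 32 genes for hormones and other proteins that the liver secretes, 2 were higher and 4 lower on low selenium at an unadjusted p under 0.05. Over all genes these shares were 5.43% and 6.79%. The median of the list was 0.03, the same as over all genes tested. Tsku was the 1 called. Hamp2, a relative of the iron hormone hepcidin, was at 68.8, 84.2 and 69.3 CPM in WT LS livers, against 353, 103 and 170 CPM in WT MS livers, and its log2 fold change was -1.28 ± 0.385 (SE) over both genotypes. Fst, an inhibitor of activins, was at 6.37, 7.48 and 5.96 CPM in WT LS livers, against 16.9, 7.60 and 15.6 CPM in WT MS livers. For both genes the WT libraries were apart and the KO libraries overlapped.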
